A study of Mus musculus with 28 samples.

Results

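The report covers 7 mouse genes that the rule took by name from the count table, *Lin28a*, *Lin28b*, *Hmga1*, *Hmga2*, *Igf2bp1*, *Igf2bp2* and *Igf2bp3*, of 28244 genes in all. No measured value entered this choice. They were followed through 28 bulk RNA-seq samples in 11 groups. All 7 rows held counts, but only 5 genes passed the filter on low counts, and *Lin28a* and *Lin28b* passed it in none of the fits.

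The samples came from 3 experiments that compared neural stem cells grown from the brain (brain NSCs) with neural stem cells grown from tissues outside the central nervous system (peripheral NSCs, pNSCs), and all carry the strain label C57BL/6. The study's methods instead describe wild-type mice as CD1 or mixed CD1 and C3H, with the transgenic lines bred to them. A genetic background shared by all groups is therefore not certain. The first experiment has the groups Brain-NSC, Tail-pNSC, Lung-pNSC, Tail and Lung, with 2 samples each. Its labels name no mouse line or age, while the study's methods describe Nes-GFP mice, adult lung and postnatal tail. The second experiment has Wnt1Cre-mTmG brain NSCs, Wnt1Cre-mTmG Tail pNSCs, Wnt1Cre-mTmG DRG pNSCs and DRG NCSCs, with 3 samples each. In these mice Wnt1-Cre switches a membrane Tomato reporter to GFP in neural crest cells and their progeny (and in some midbrain cells), and the study's text describes the pNSCs as Tomato+/GFP- cells of postnatal tail and of postnatal dorsal root ganglia (DRG). The neural crest stem cells (NCSCs) came from the DRG of adult wild-type mice and thus lack the 2 transgenes of the groups they were compared with. The third experiment has Sox2-GFP brain NSCs and Sox2-GFP lung pNSCs, 3 samples each, from mice that carry GFP knocked in at *Sox2*, and it shares the 2 Lung samples of the first experiment. The study's text places these lung pNSCs in postnatal lung, whereas the Lung-pNSC group is tied to adult lung, so that donor age and experiment cannot be told apart between both lung groups. The labels' protocol gives about 4 to 6 weeks for adult and day 1 to 5 for postnatal donors, but no donor age for each sample. By the study's methods brain NSCs came from adult or postnatal brain, and no age is named for any of the brain NSC groups. In every comparison of pNSCs with brain NSCs, tissue and donor age can therefore not be told apart. The pNSCs were grown from clusters picked by hand, so that a group may stand for few founder cells, while the study calls its replicates biological, without saying whether they were separate animals, derivations or cultures of a line. The p-values therefore measure the spread between these samples, and need not cover the spread between animals or derivations.

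*Lin28a* and *Lin28b* encode RNA-binding proteins that bind the precursor of the let-7 microRNA and block its maturation. Mature let-7 in turn represses the Lin28 mRNAs, *Hmga2* and the *Igf2bp* mRNAs through their 3′ UTRs, so that Lin28 and its partners are high in early embryonic cells and let-7 is high in later ones. Genes with such a stage-bound course are called heterochronic. *Hmga1* and *Hmga2* encode AT-hook proteins of chromatin, and HMGA2 is known for sustaining the self-renewal of young neural stem cells. The *Igf2bp* genes encode the IMP proteins, which bind mRNAs such as *Igf2* and *Actb* and steer their stability and transport.

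The sequences that link these genes are the let-7 seed and its matches, and they are shown because every member carried at least 1 match. The 9 distinct mature let-7 family sequences found in the RefSeq annotation (GRCm38.p6) had 1 seed in common, bases 2 to 8, given in capitals in 4 of them:

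mmu-let-7a-5p: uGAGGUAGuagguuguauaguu
mmu-let-7c-5p: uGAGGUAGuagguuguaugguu
mmu-let-7i-5p: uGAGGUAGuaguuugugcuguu
mmu-miR-98-5p: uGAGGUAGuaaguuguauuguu

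The motif searched was CTACCTC, the complement of that seed, on the transcript strand of the longest 3′ UTR of each gene (GENCODE M21, GRCm38). It stood 4 times in *Lin28b*, *Hmga2* and *Igf2bp1*, 2 times in *Lin28a* and 1 time in *Hmga1*, *Igf2bp2* and *Igf2bp3*. Of 21007 protein-coding genes with a 3′ UTR, 9.02% held at least 1 match and 1.08% at least 2, and 12 genes, *Hmga2* included, had at least as many as *Hmga2*. Long 3′ UTRs hold a match more often: among genes with a 3′ UTR of about the same length, 16% had one for the 3014 bases of *Hmga2*, 34.2% for the 6337 bases of *Igf2bp1* and 8.22% for the 1183 bases of *Hmga1*. No level reported below was tested against a match. Printed with the match in capitals are all 4 of *Hmga2* and the first of each *Igf2bp* gene, of *Hmga1* and of *Lin28b*:

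Hmga2 site 1 (chr10:120364224-120364245, minus strand): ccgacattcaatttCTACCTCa
Hmga2 site 2 (chr10:120362987-120363008, minus strand): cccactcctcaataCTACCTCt
Hmga2 site 3 (chr10:120362549-120362570, minus strand): tgatttgcaaggaaCTACCTCc
Hmga2 site 4 (chr10:120361691-120361712, minus strand): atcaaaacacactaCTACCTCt
Igf2bp1 site 1 (chr11:95961778-95961799, minus strand): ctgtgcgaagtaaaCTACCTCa
Igf2bp2 site 1 (chr16:22059473-22059494, minus strand): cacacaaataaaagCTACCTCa
Igf2bp3 site 1 (chr6:49086787-49086808, minus strand): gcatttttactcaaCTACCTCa
Hmga1 site 1 (chr17:27563278-27563299, plus strand): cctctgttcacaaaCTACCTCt
Lin28b site 1 (chr10:45381022-45381043, minus strand): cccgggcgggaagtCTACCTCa

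A match is a description of the letters and not a measured site. The base after the match was an A, which adds to pairing in the usual model of a seed site, in the sites shown of *Igf2bp1*, *Igf2bp2*, *Igf2bp3* and *Lin28b* and in site 1 of *Hmga2*, and not in the other 3 of *Hmga2* or the site of *Hmga1*. Among the sites not shown, those of *Lin28b* and site 4 of *Igf2bp1* lacked it, while sites 2 and 3 of *Igf2bp1* and both of *Lin28a* had it.

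**Figure D1:**
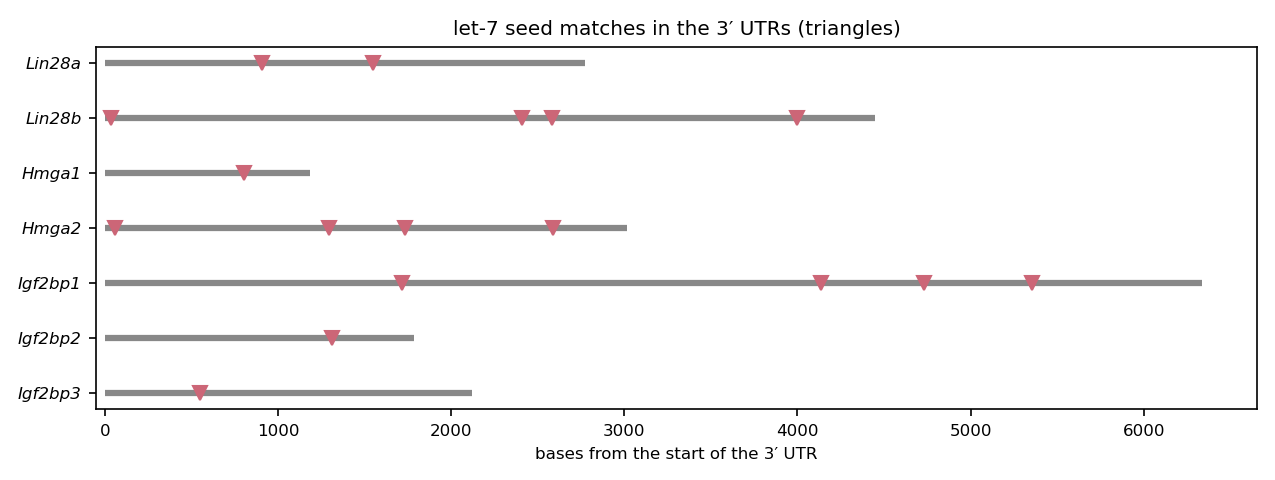
Positions of the let-7 seed matches (triangles) along the 3′ UTR of each of the 7 genes, in bases from the start of the UTR, with the grey bar giving the UTR length. *Igf2bp1* has the longest UTR (6337 bases) with 4 matches, and *Hmga1* the shortest (1183 bases) with 1.

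The genes lie apart in the genome (GRCm38): *Lin28a* at chr4:134003330-134018841, *Lin28b* at chr10:45376620-45486395, *Hmga1* at chr17:27556497-27563674, *Hmga2* at chr10:120361275-120476469, *Igf2bp1* at chr11:95957163-96005940, *Igf2bp2* at chr16:22059009-22163299 and *Igf2bp3* at chr6:49085223-49214957. The overlaps that bear most on the counts concern *Hmga1* and *Igf2bp3*. *Hmga1b* (chr11:120762794-120764419) is a near copy of *Hmga1* that has its own row. *Malsu1* shares 1529 exon bases with *Igf2bp3* on the opposite strand, and no source used here says whether reads were counted by strand. *Malsu1* was called in none of the comparisons, with log2 fold changes of at most 0.99 in size (edgeR).

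Total counts ran from 9808246 to 22637031 per sample, and levels are given as CPM, the counts per 1000000 counts of a library, with library sizes scaled by TMM. A gene was called where edgeR's quasi-likelihood test gave a Benjamini-Hochberg adjusted p under 0.05 over all genes tested and a change of 1 or more log2 units either way. Replicate 3 of the DRG NCSCs stood apart from the other 2, with a chi-square per degree of freedom of 15.94 and 19.87, against 1.08 to 2.74 for every other pair of replicates. Counting error alone would give about 1. In the Sox2-GFP and Wnt1Cre-mTmG lines no pair exceeded 1.39, so that very small p-values there rest on a spread close to counting error. The summed level of 7 neural stem cell markers was 4497 to 6534 CPM in the brain NSC and pNSC samples, 1444 to 1838 CPM in the DRG NCSCs, 289 to 314 CPM in Lung and 86.8 to 90 CPM in Tail. In bulk RNA, fewer cells of a type and less RNA per cell cannot be told apart.

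**Figure D2:**
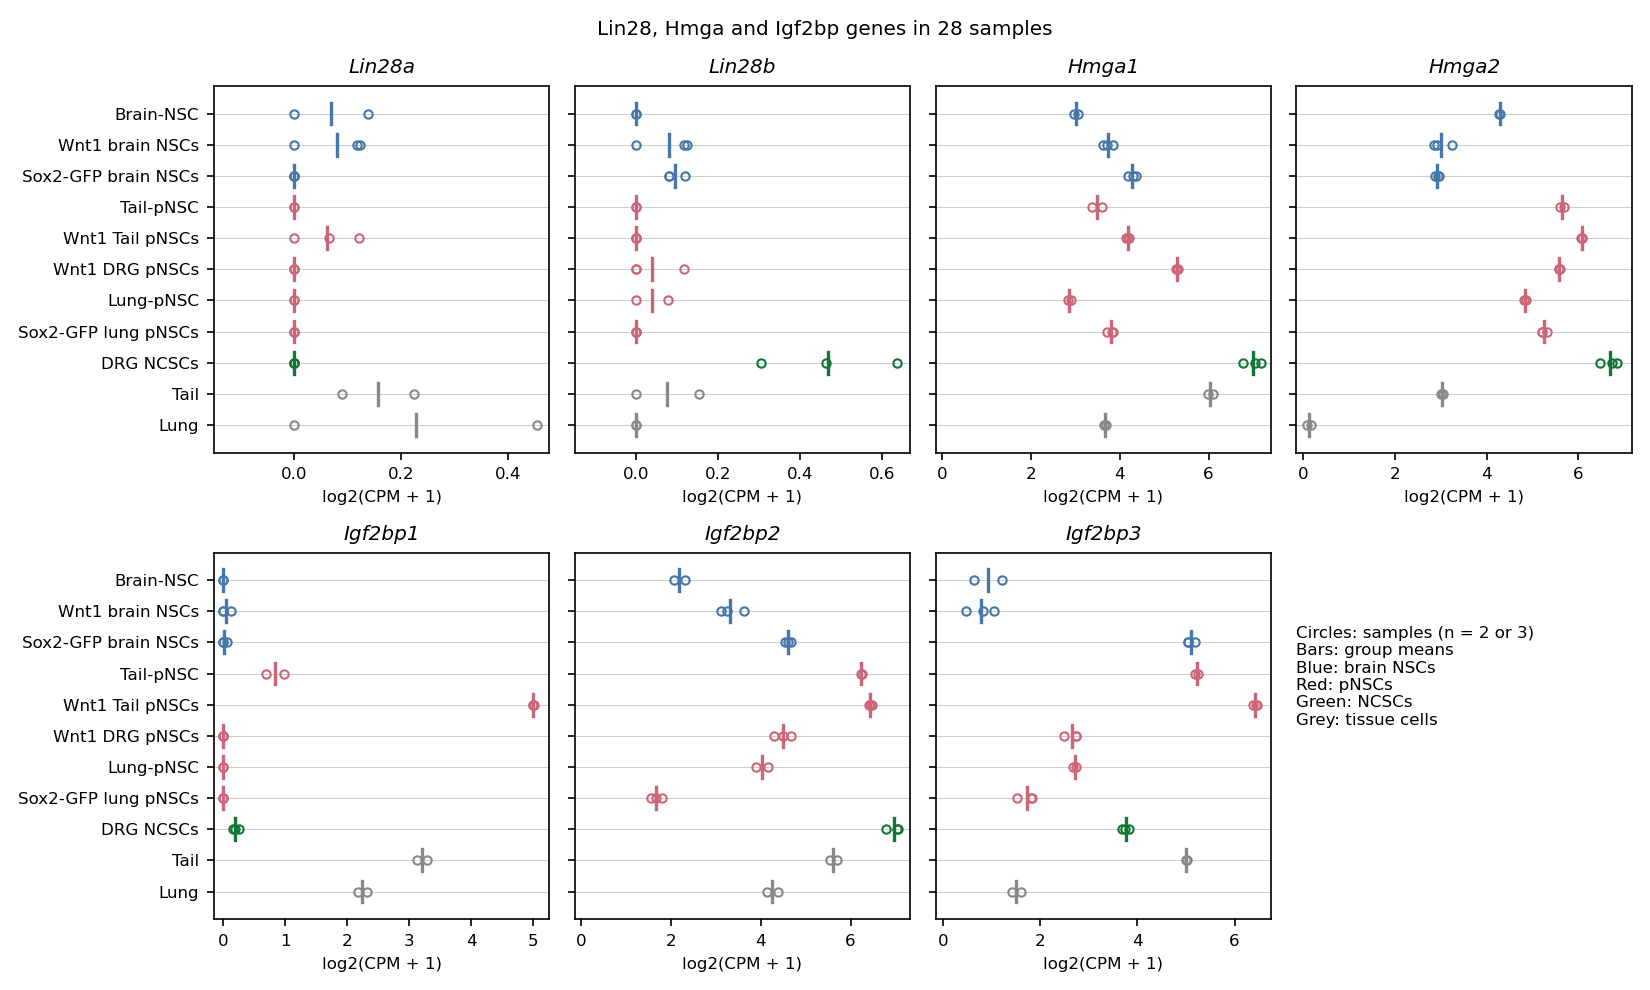
Levels of the 7 genes in all 28 samples, as log2(CPM + 1), where each circle is a sample (2 or 3 per group), each bar a group mean, and each panel has its own axis range. *Hmga1*, *Hmga2* and *Igf2bp2* are highest in the DRG NCSCs, *Igf2bp1* and *Igf2bp3* in the Wnt1Cre-mTmG tail pNSCs, and both *Lin28* genes stay under 1 CPM everywhere.

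The *Lin28* genes were close to absent. *Lin28a* had 17 counts over all 28 samples, the highest being 6 in 1 Lung sample beside 0 in the other. In the 5 pNSC groups *Lin28a* had 3 counts in all, 2 and 1 of them in the Wnt1Cre-mTmG tail pNSCs. *Lin28b* had 24 counts in the DRG NCSCs, with 12, 8 and 4 in its samples (0.556, 0.38 and 0.235 CPM), and no more than 2 in any other sample. The NCSC samples were thus all above every other sample for *Lin28b*. The ratio of NCSCs to Wnt1Cre-mTmG brain NSCs was 6.71 for *Lin28b* (24 against 2 counts, exact 95% interval 1.67 to 58.6, counting error only), and NCSCs were at least 2.77-fold higher than the tail pNSCs of that experiment, which had no count, with 3 counts per library as the floor. A floor of 3 counts corresponds to 0.1305 to 0.295 CPM across the libraries, and it was chosen rather than measured as a limit of detection.

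*Hmga2* is the member known best from neural stem cells. Its level in the DRG NCSCs was 106, 113 and 88.4 CPM, and in the Wnt1Cre-mTmG tail pNSCs it was 66.2, 66.6 and 66 CPM. Tail-pNSC samples had 47.8 and 50.7 CPM, the Wnt1Cre-mTmG DRG pNSCs had 46.8, 47.6 and 46.6 CPM, the Sox2-GFP lung pNSCs 39.1, 36.1 and 36 CPM, and Lung-pNSC 28.1 and 27.3 CPM. All of these lay above the brain NSCs, which had 18.4 and 18.6 CPM in Brain-NSC, 8.49, 6.18 and 6.61 CPM in the Wnt1Cre-mTmG line, and 6.31, 6.66 and 6.8 CPM in the Sox2-GFP line. The lowest pNSC sample (27.3 CPM) was thus above the highest brain NSC sample (18.6 CPM). Tail cells had 7.29 and 7.03 CPM, and Lung cells 0.0538 and 0.123 CPM, the latter from 1 and 2 counts. Along this order of group means, 2 of the 10 pairs of neighbours overlapped in their samples, Tail with the Wnt1Cre-mTmG brain NSCs and those with the Sox2-GFP brain NSCs.

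*Hmga1*, whose protein shares the AT-hooks of HMGA2, followed another order. It was highest in the DRG NCSCs, with 131, 145 and 109 CPM, then in Tail with 62 and 67.2 CPM and in the Wnt1Cre-mTmG DRG pNSCs with 37.4, 38.8 and 38 CPM. The Sox2-GFP brain NSCs had 17.1, 18.6 and 19.5 CPM and overlapped with the Wnt1Cre-mTmG tail pNSCs, with 16.5, 17.5 and 17.2 CPM. Lower down came the Sox2-GFP lung pNSCs (13.4, 12.1 and 13.1 CPM), the Wnt1Cre-mTmG brain NSCs (13.4, 12.1 and 11.3 CPM) and Lung (11.6 and 11.9 CPM), each overlapping with the next. *Hmga1* was lowest in Tail-pNSC with 11.1 and 9.36 CPM, Brain-NSC with 6.77 and 7.35 CPM and Lung-pNSC with 6.42 and 6.16 CPM. The near copy *Hmga1b* took 40.3% of the summed counts of *Hmga1* and *Hmga1b* in the Wnt1Cre-mTmG brain NSCs (37.2 to 43.9%), between 10.8 and 11.2% in Brain-NSC, Tail and DRG NCSCs, and at most 1.2% on average in each other group. Both tail pNSC groups, the DRG pNSCs and Lung-pNSC had few counts of *Hmga1b*, and it was called lower there than in their brain NSCs (edgeR). In the Sox2-GFP line it was not tested.

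*Igf2bp2* and *Igf2bp3* were expressed in every group and *Igf2bp1* in few. *Igf2bp1* had 30.9, 31.3 and 31 CPM in the Wnt1Cre-mTmG tail pNSCs, 8.81 and 7.8 CPM in Tail, 3.5 and 4 CPM in Lung and 0.98 and 0.611 CPM in Tail-pNSC. In the DRG NCSCs *Igf2bp1* had 3, 4 and 2 counts, and in the other 6 groups no sample had more than 1. The order for *Igf2bp2* ran from the DRG NCSCs (132, 130 and 110 CPM) over the Wnt1Cre-mTmG tail pNSCs (83.5, 86 and 88.4 CPM) and Tail-pNSC (74.9 and 74.6 CPM) to Tail (45.3 and 50.6 CPM). It was lowest in Brain-NSC, with 3.16 and 3.97 CPM, and in the Sox2-GFP lung pNSCs, with 2.19, 1.93 and 2.46 CPM. *Igf2bp3* was highest in the Wnt1Cre-mTmG tail pNSCs (86.6, 86.3 and 81.9 CPM), then in Tail-pNSC (37.1 and 35.5 CPM), the Sox2-GFP brain NSCs (35.4, 32 and 32.2 CPM) and Tail (31.1 and 31.3 CPM). The other 2 brain NSC lines held the lowest *Igf2bp3* levels, with 0.551 and 1.31 CPM in Brain-NSC and 1.07, 0.386 and 0.762 CPM in the Wnt1Cre-mTmG line, and overlapped with each other.

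Per kilobase of exon, which allows levels of different genes to be set side by side, the mean of *Igf2bp2* was 16.8 ± 1.66 CPM per kb in the DRG NCSCs (s.d., n = 3), against 15.1 ± 1.85 for *Hmga2* and 60.4 ± 8.49 for *Hmga1*. Of the summed *Igf2bp* level per kb, *Igf2bp2* made up 92.7% ± 3.55 in the Wnt1Cre-mTmG brain NSCs, 91.5% ± 0.426 in the DRG NCSCs, 81.7% ± 6.59 in Brain-NSC and 43.7% ± 0.806 in the Sox2-GFP brain NSCs. *Igf2bp3* was the larger part in the Sox2-GFP brain NSCs, with 56.3% ± 0.793, and close to *Igf2bp2* in the Sox2-GFP lung pNSCs (49% ± 2.07 against 51% ± 2.07). In the Wnt1Cre-mTmG tail pNSCs the 2 shares were 41.3% ± 1.27 and 46% ± 1.28. The shares use all 8159 exon bases of *Igf2bp3*, of which 1529 are shared with *Malsu1*. If reads there were dropped, its share is too low, and the order of *Igf2bp2* and *Igf2bp3* is not certain where they lie close. The share of *Igf2bp1* reached 12.7% ± 0.0128 in the Wnt1Cre-mTmG tail pNSCs, 12.6% ± 0.447 in Lung and 7.7% ± 0.97 in Tail, and was at most 0.561% in each other group.

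**Figure D3:**
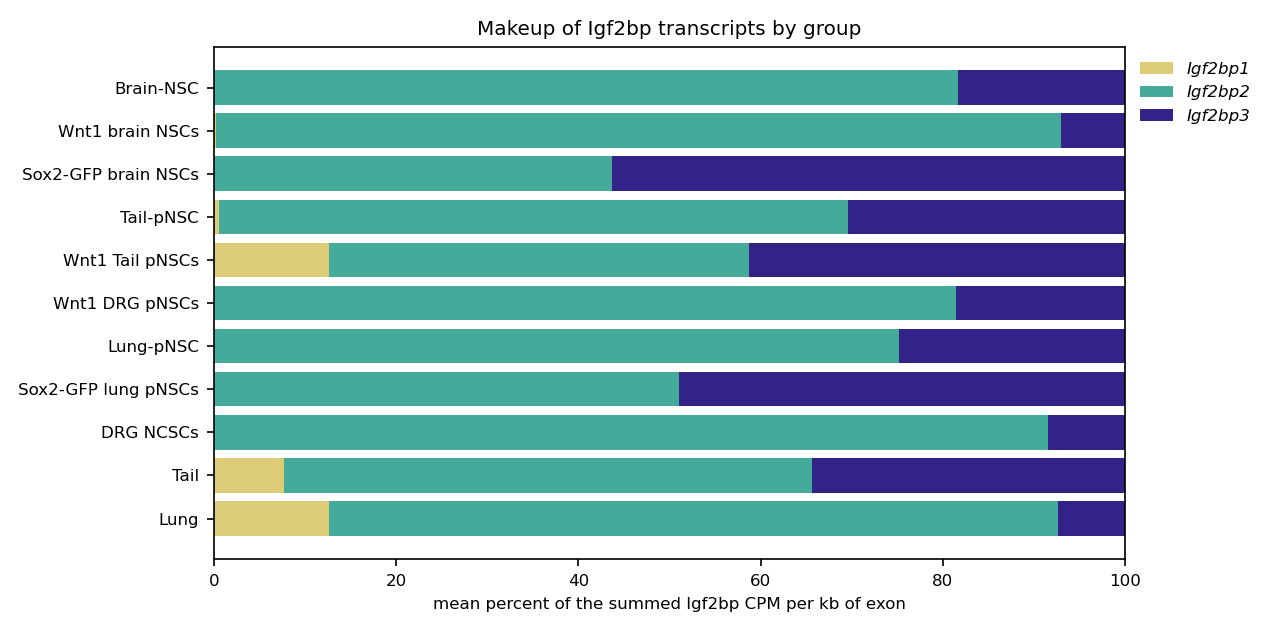
Mean share of *Igf2bp1*, *Igf2bp2* and *Igf2bp3* in the summed CPM per kb of exon of the 3 genes, in percent, for each of the 11 groups (n = 2 or 3). Over all exon bases *Igf2bp2* takes the largest mean share in 10 of 11 groups, narrowly in the Sox2-GFP lung pNSCs (51 against 49%), and the Sox2-GFP brain NSCs are the exception. The shares are not corrected for the exon bases that *Igf2bp3* shares with *Malsu1*, so that close shares may change order.

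Whether pNSCs of the tail carried other levels than brain NSCs was asked in both the first and the second experiment. Counts of members called are given over those with a mean above 3 counts in each group compared, since *Igf2bp1* passed the filter through the groups where it is high and is described apart. In the first experiment, 3 of 4 such members were called higher in Tail-pNSC and none lower, where 10.9% of all genes tested were called. *Hmga2* was 2.62-fold higher (log2 fold change 1.39 ± 0.083 SE, adjusted p = 2.411e-61, edgeR), *Igf2bp2* 20.6-fold (4.36 ± 0.10, adjusted p too small to be represented) and *Igf2bp3* 37.9-fold (5.24 ± 0.16, adjusted p = 1.269e-226), or 63.7-fold without Brain-NSC replicate 2, which had the higher *Igf2bp3* level of that pair. Brain-NSC held 11 and 27 counts of *Igf2bp3*, so that the SE of its fold may understate the counting error. *Igf2bp1* had 17 and 12 counts in Tail-pNSC and none in Brain-NSC, and was at least 5.38-fold higher. *Hmga1* differed by less than the fold limit, with 0.50 ± 0.13 (adjusted p = 0.0004201).

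In the Wnt1Cre-mTmG line, 3 of 4 members were called higher in the tail pNSCs, where 18.2% of all genes tested were called. The log2 fold changes were 3.21 ± 0.11 for *Hmga2* (9.28-fold, adjusted p = 4.185e-14, edgeR), 3.22 ± 0.11 for *Igf2bp2* (9.34-fold, adjusted p = 9.75e-14) and 6.81 ± 0.13 for *Igf2bp3* (112-fold, adjusted p = 3.018e-17). *Igf2bp3* had only 12, 4 and 9 counts in these brain NSCs, so that its SE may understate the counting error. *Igf2bp1* had 701, 676 and 613 counts in the tail pNSCs against 0, 1 and 0 in the brain NSCs, a ratio of 1036 (exact 95% interval 186 to 40960, counting error only). Without the brain NSC replicate that held this 1 count, *Igf2bp1* was at least 119-fold higher. *Hmga1* was not called, with 0.47 ± 0.12 (adjusted p = 0.001839), and its direction turned to -0.26 when the counts of *Hmga1* and *Hmga1b* were summed, a choice made after seeing the data. The tail pNSCs also had 416 to 427 CPM of 6 summed mesenchymal markers, none of them at 0 and 5 of 6 called higher, against 33.3 to 34 CPM in the brain NSCs, and 2058 to 2081 CPM of 13 proliferation genes against 3113 to 3136 CPM. The part of either in the *Igf2bp* and *Hmga2* differences was not tested. In Tail-pNSC the mesenchymal markers summed to 10.4 to 11.4 CPM, beside 7.93 to 9.98 CPM in Brain-NSC, where *Dcn* and *Lum* were at 0, and 3 of 6 were called higher and none lower. Their part was not tested there either.

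The size of the tail difference differed between the experiments for 3 of 4 members called in the interaction test over all 28 samples, where 16.0% of genes were called. It was larger in the Wnt1Cre-mTmG line by 1.81 ± 0.14 for *Hmga2* and 1.55 ± 0.38 for *Igf2bp3*, and smaller by 1.16 ± 0.20 for *Igf2bp2* (adjusted p = 4.333e-14, 0.0008024 and 8.17e-06, edgeR). Without Brain-NSC replicate 2 the value for *Igf2bp3* fell to 0.80 (adjusted p = 0.2488), and without replicate 3 of the Wnt1Cre-mTmG brain NSCs that for *Igf2bp2* was -0.96, inside the fold limit. Mouse line, experiment, brain NSC line and the donor age of the brain NSCs cannot be told apart in this test.

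The DRG pNSCs share their brain NSC controls with the tail pNSCs of that experiment. Against these controls 4 of 4 members were called higher in the DRG pNSCs, where 9.53% of all genes tested were called. *Hmga2* rose by 2.72 ± 0.12 (6.6-fold, adjusted p = 3.916e-12, edgeR), *Igf2bp3* by 2.81 ± 0.23 (adjusted p = 2.452e-08) and *Igf2bp2* by 1.24 ± 0.14 (adjusted p = 1.452e-06). *Hmga1* was 1.63 ± 0.11 higher (adjusted p = 2.557e-09), which came to 0.90 and was no longer called with *Hmga1b* added to its counts. *Igf2bp1* had no count in the DRG pNSCs. Between both pNSC groups of this line, the tail pNSCs had higher *Igf2bp3* (4.00 ± 0.092), *Igf2bp2* (1.98 ± 0.099) and *Igf2bp1* (at least 111-fold) and lower *Hmga1* (-1.16 ± 0.096), so that 3 of 4 members, *Igf2bp1* apart, were called against 18.0% of all genes, and *Hmga2* was 0.49 ± 0.078 higher, inside the fold limit (edgeR). With these differences went 6 of 6 mesenchymal markers called higher in the tail pNSCs (416 to 427 against 29.1 to 32.6 CPM) and 8 of 13 proliferation genes called lower (2058 to 2081 against 4277 to 4389 CPM), and their part was not tested.

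Lung pNSCs were measured in the first and in the Sox2-GFP experiment. In the first, 2 of 4 members were called higher in Lung-pNSC than in Brain-NSC and none lower, where 8.71% of all genes tested were called. *Igf2bp2* was 4.26-fold higher (2.09 ± 0.13, adjusted p = 1.152e-52, edgeR) and *Igf2bp3* 5.8-fold (2.54 ± 0.24, adjusted p = 5.133e-25), or 9.74-fold without Brain-NSC replicate 2. *Igf2bp1* had no count in either group. *Hmga2* was 0.56 ± 0.089 higher (adjusted p = 3.014e-09), below the fold limit, and *Hmga1* did not pass the test, with -0.19 ± 0.14 (adjusted p = 0.3324). With *Hmga1b* added to its counts, *Hmga1* came to -0.34 ± 0.14 (adjusted p = 0.0384, edgeR), still inside the fold limit. The Tail-pNSC samples had higher *Igf2bp3* than Lung-pNSC (2.71 ± 0.11), higher *Igf2bp2* (2.27 ± 0.078) and at least 5.14-fold higher *Igf2bp1*, with 2 of 4 members, *Igf2bp1* apart, called where 12.9% of genes were. The study's methods tie Tail-pNSC to postnatal tail and Lung-pNSC to adult lung, so that tissue and donor age cannot be told apart here.

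In the Sox2-GFP line *Hmga2* was called higher in the lung pNSCs than in the brain NSCs and *Igf2bp2* and *Igf2bp3* lower, 3 of 4 members where 15.7% of all genes tested were called. The log2 fold changes were 2.51 ± 0.075 for *Hmga2* (5.68-fold, adjusted p = 1.542e-241, edgeR), -3.38 ± 0.11 for *Igf2bp2* (10.4-fold lower, adjusted p = 3.849e-223), -3.80 ± 0.096 for *Igf2bp3* (13.9-fold lower, adjusted p too small to be represented) and -0.50 ± 0.075 for *Hmga1* (not called). Here the pNSCs held 46, 42 and 56 counts of *Igf2bp2* against 421, 512 and 408 in the brain NSCs, and the groups did not overlap. The difference from the first experiment was called for 3 of 4 members in the interaction test, where 14.1% of all genes were: 1.91 ± 0.13 for *Hmga2*, -5.51 ± 0.22 for *Igf2bp2* and -6.38 ± 0.24 for *Igf2bp3* (adjusted p = 3.136e-15, 1.811e-22 and 7.682e-23, edgeR). Without Brain-NSC replicate 2 the value for *Igf2bp3* was -7.11. Donor age, mouse line, experiment and brain NSC line cannot be told apart in it. The sign of *Igf2bp2* and that of *Igf2bp3* thus each differed between the experiments, with both genes higher in the lung pNSCs of the first and lower in those of the Sox2-GFP line. The 13 proliferation genes summed to 1695 to 1701 CPM in the Sox2-GFP brain NSCs and to 3555 to 3590 CPM in the lung pNSCs, against 3506 to 3515 CPM in Brain-NSC and 3532 to 3540 CPM in Lung-pNSC, and their part in the difference was not tested.

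**Figure D4:**
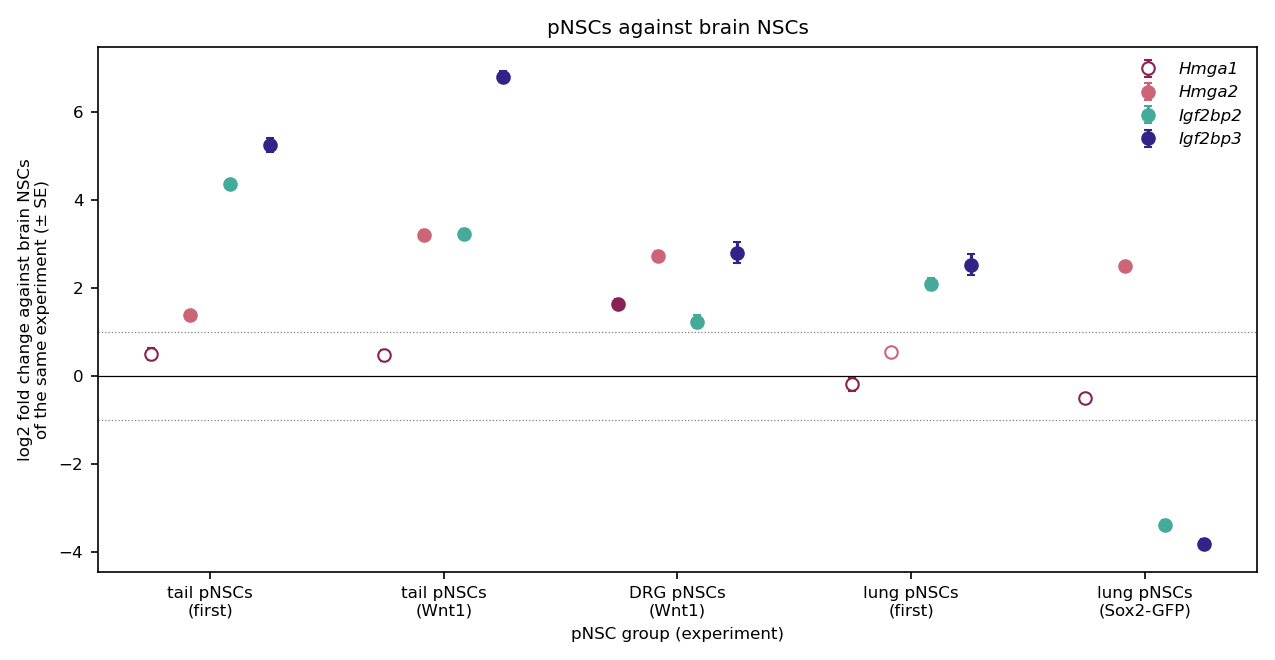
Log2 fold change (± SE) of *Hmga1*, *Hmga2*, *Igf2bp2* and *Igf2bp3* in each pNSC group against the brain NSCs of the same experiment, with filled points for genes past the adjusted p and the fold limit (dotted lines at 1 and -1). *Hmga2* is above 0 in all 5, and *Igf2bp2* and *Igf2bp3* are above 0 in 4 and below -3 in the Sox2-GFP lung pNSCs.

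The 3 brain NSC lines that serve as controls differed among themselves, and line, experiment and donor age cannot be told apart. Brain-NSC had higher *Hmga2* than the Wnt1Cre-mTmG brain NSCs (1.38 ± 0.12) and lower *Igf2bp2* (-1.36 ± 0.19), 2 of 4 members where 12.5% of all genes tested were called. Against the Sox2-GFP brain NSCs it had higher *Hmga2* (1.49 ± 0.11) and lower *Hmga1* (-1.38 ± 0.12), *Igf2bp2* (-2.71 ± 0.15) and *Igf2bp3* (-5.14 ± 0.15, or -5.88 without Brain-NSC replicate 2), 4 of 4 members where 19.1% were called. The Sox2-GFP brain NSCs exceeded the Wnt1Cre-mTmG brain NSCs in *Igf2bp3* (5.45 ± 0.16, 43.8-fold, adjusted p = 6.401e-27, edgeR) and *Igf2bp2* (1.35 ± 0.12), where 15.5% of genes were called, while *Hmga2* did not pass the test (-0.11 ± 0.14, adjusted p = 0.538). The Sox2-GFP brain NSCs thus stood apart from both other brain lines in *Igf2bp3*. They also held 95 to 101 CPM of the mesenchymal and 68.4 to 73.4 CPM of the neural crest and Schwann markers, with *Col1a2* and *Foxd3* at 0, against at most 34 and 23.6 CPM in the other 2 lines, and the part of these cells in the difference was not tested. Summing *Hmga1* and *Hmga1b* moved the difference of Brain-NSC from the Wnt1Cre-mTmG line from -0.80 to -1.37, past the fold limit.

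The DRG NCSCs gave the contrast with a neural crest stem cell. They exceeded the Wnt1Cre-mTmG brain NSCs in 4 of 4 members, where 36.9% of all genes tested were called: *Hmga1* by 3.40 ± 0.098, *Hmga2* by 3.86 ± 0.10, *Igf2bp2* by 3.77 ± 0.11 and *Igf2bp3* by 4.07 ± 0.18 (edgeR, adjusted p from 4.345e-16 to 4.804e-13). *Igf2bp1* was not called, with 9 against 1 counts, and was called without replicate 2 of the brain NSCs, the only sample of that group with a count (adjusted p = 0.02081). The 4 members above the floor were all called lower in the DRG pNSCs than in the NCSCs, where 38.3% of all genes were called, by 1.13 ± 0.077 for *Hmga2* to 2.53 ± 0.097 for *Igf2bp2*. *Igf2bp1*, with 0 against 9 counts, had a mean at or under the floor in both and is given no fold. The tail pNSCs had lower *Hmga1* than the NCSCs (-2.92 ± 0.085) and higher *Igf2bp3* (2.74 ± 0.071), 2 of 4 members where 37.9% were called, and the ratio for *Igf2bp1* was 206 (1990 against 9 counts, exact 95% interval 108 to 451). Without NCSC replicate 3, which stood apart, the numbers called over all 5 members tested were as with it, 4, 5 and 3. By the study's text the NCSCs came from adult wild-type mice and the pNSCs from postnatal Wnt1Cre-mTmG mice. Cell type and genotype cannot be told apart in these contrasts, nor can donor age. Donor age is not given for the brain NSCs of this experiment. The NCSCs held 4283 to 4381 CPM of 6 neural crest and Schwann markers, 2813 to 3471 CPM of 6 mesenchymal markers and 591 to 625 CPM of 5 leukocyte markers, with no marker of the 3 lists at 0, and the part of the last 2 in the member levels was not tested.

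Against the tissue cells, large parts of the table were called, and the members are to be read against that background, 46.7% of genes for Tail-pNSC against Tail, 55.0% for Lung-pNSC against Lung and 56.3% for the Sox2-GFP lung pNSCs against the same 2 Lung samples, which come from another experiment and, by the study's text, possibly another donor age. The median log2 fold change of all genes was -0.16, -0.15 and -0.12 there, and the values that follow are not corrected for it. Many cell type markers moved with these comparisons. In Tail the 6 mesenchymal markers summed to 72419 to 74084 CPM and the 4 keratinocyte markers to 4861 to 4968 CPM, and all 10 were called lower in Tail-pNSC. In Lung the 6 lung epithelial markers summed to 30715 to 31454 CPM and the 5 leukocyte markers to 5614 to 5646 CPM, and all 11 were called lower in both lung pNSC groups. The 13 proliferation genes, at 271 to 275 CPM in Lung, were all called higher in both, and 8 of 13 were called higher in Tail-pNSC than in Tail. The part of these cells in the member differences was not tested. Tail-pNSC had higher *Hmga2* than Tail (2.69 ± 0.10) and lower *Hmga1* (-2.76 ± 0.093) and *Igf2bp1* (-3.49 ± 0.28), while *Igf2bp3* did not pass the test (0.12 ± 0.087, adjusted p = 0.1745, edgeR). Of the 5 members, 3 were called. *Hmga2* had 595 and 488 counts in Lung-pNSC and 1 and 2 in Lung, a ratio of 322 (exact 95% interval 110 to 1563), or 515 without Lung replicate 2. The ratio was 430 (147 to 2084) for the Sox2-GFP lung pNSCs, and *Igf2bp1*, at 65 and 65 counts in Lung, was at least 24.2-fold and at least 27.3-fold lower in both pNSC groups. *Igf2bp3* was 1.54 ± 0.21 higher in Lung-pNSC than in Lung, and *Igf2bp2* was 3.07 ± 0.12 log2 units lower in the Sox2-GFP lung pNSCs than in Lung, in each comparison the 1 called of the 3 members above the floor in both groups. *Hmga1* lay at -0.95 ± 0.13 in Lung-pNSC, just inside the fold limit, and was past it with DESeq2 (-1.04, 4 of 5 members) and with the stricter filter (-1.09).

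Genes that make, modify or bind let-7 and genes known as let-7 targets were taken from lists made by name, with earlier results of these data known. Of 21 genes of let-7 processing and binding, 1 was called higher and none lower in Tail-pNSC against Brain-NSC, with a median log2 fold change of 0.15 over the 20 that can be given a value and 0 over all genes tested. Over all genes the share called was 10.9% there, and 8.71, 18.2, 9.53 and 15.7% in the comparisons that follow, and the list's shares lay below that background. The counts were 0 and 0 in Lung-pNSC (edgeR, 9 of 21 at an unadjusted p under 0.05 and 0 called by DESeq2, median -0.05), 1 higher and 1 lower in the Wnt1Cre-mTmG tail pNSCs (median 0.19), 1 higher in the DRG pNSCs (0.11) and 1 higher in the Sox2-GFP lung pNSCs (0.05). The gene called higher was the same in all 4, *Trim71*. It encodes LIN41, a let-7 target and repressor of mRNAs that is itself a heterochronic gene. Its mean level was 4.37 ± 0.151 CPM in Tail-pNSC against 0.688 ± 0.122 in Brain-NSC (s.d., n = 2), with a log2 fold change of 2.63 ± 0.33 (adjusted p = 4.487e-15, edgeR). In the second experiment *Trim71* was at 4.46 ± 0.217 CPM in the tail and 1.54 ± 0.172 CPM in the DRG pNSCs against 0.116 ± 0.101 CPM in the brain NSCs (s.d., n = 3), where the 3 samples held 4 counts in all. The ratios were 37.2 (286 against 4 counts, exact 95% interval 14.4 to 138) and 12.9 (50 against 4 counts, 4.73 to 49.2). The Sox2-GFP lung pNSCs had 0.836 ± 0.302 CPM of *Trim71* against 0.13 ± 0.0749 CPM, a ratio of 6.91 (55 against 7 counts, exact 95% interval 3.14 to 18), and Lung-pNSC, at 1.06 ± 0.164 CPM, was not called.

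**Figure D5:**
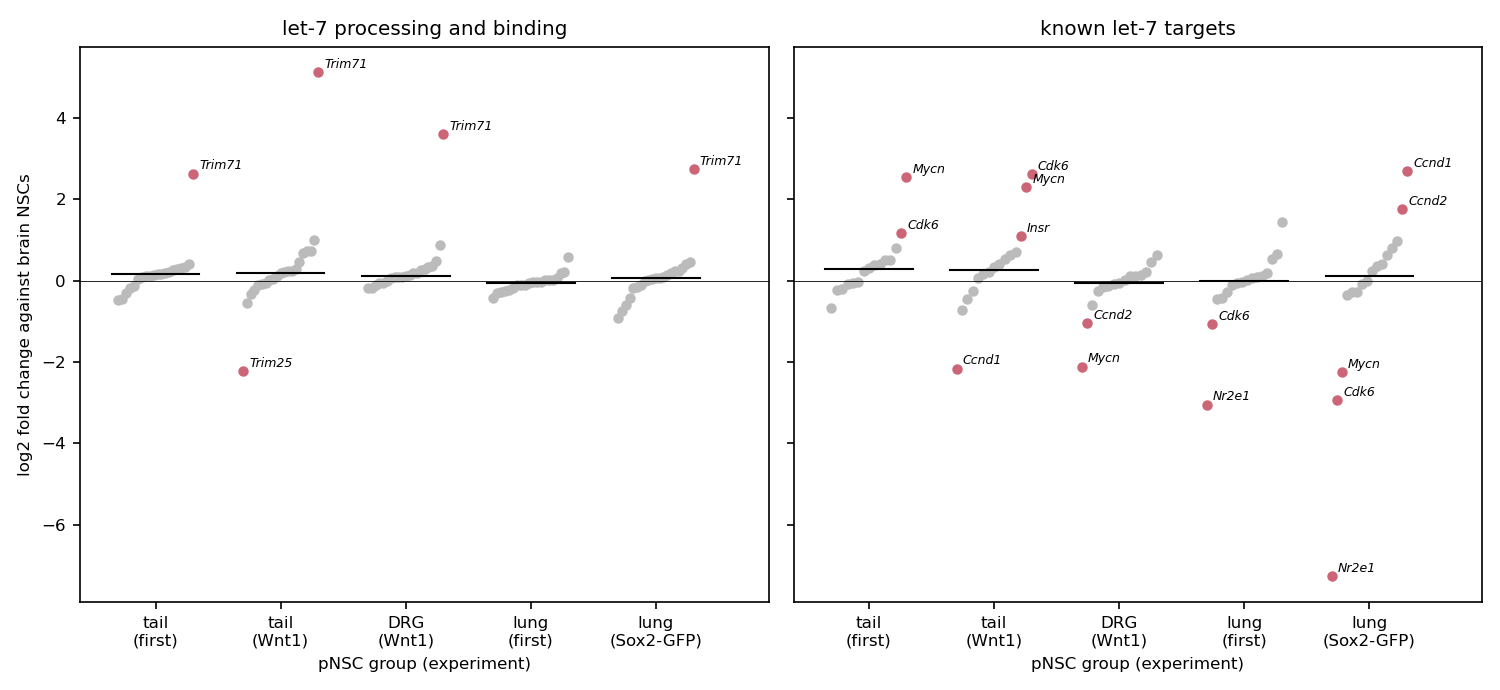
Log2 fold change of each gene of let-7 processing and binding (left) and of known let-7 targets (right) in the 5 pNSC groups against the brain NSCs of the same experiment, with called genes in red and named, and the list median as a black line. Genes given only as a bound or a ratio of few counts are left out as points and enter the median at their bound, and *Trim71*, fitted from 4 and 7 counts in the Wnt1Cre-mTmG and Sox2-GFP brain NSCs, stands above 2 in 4 of the 5 groups.

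Of 16 known let-7 targets, 2 were called higher and 1 lower in Tail-pNSC (median 0.28), 0 and 2 in Lung-pNSC (-0.01), 3 and 2 in the Wnt1Cre-mTmG tail pNSCs (0.27), 0 and 3 in the DRG pNSCs (-0.07) and 2 and 3 in the Sox2-GFP lung pNSCs (0.12). Over all genes 10.9, 8.71, 18.2, 9.53 and 15.7% were called in these 5 comparisons, and nothing particular to the list is read from its counts. *Nr2e1*, which encodes the neural stem cell receptor TLX, was the gene lower in all 5. It stood at 39.7 ± 1.33, 38.9 ± 0.567 and 25 ± 0.459 CPM in Brain-NSC, the Wnt1Cre-mTmG and the Sox2-GFP brain NSCs and had no count in Tail-pNSC (at least 244-fold lower) or in the DRG pNSCs (at least 139-fold lower). *Cdk6*, a kinase of the cell cycle, was higher in both tail groups (1.17 ± 0.094 and 2.63 ± 0.081) and lower in both lung groups (-1.07 ± 0.13 and -2.94 ± 0.15). *Mycn*, a transcription factor of growing progenitors, was higher in both tail groups (2.54 ± 0.54 and 2.31 ± 0.12) and lower in the DRG pNSCs (-2.12 ± 0.25) and the Sox2-GFP lung pNSCs (-2.25 ± 0.23).

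HMGA2 is known to hold down the *Cdkn2a* and *Cdkn2b* locus, which encodes inhibitors of the cell cycle, in young neural stem cells. *Cdkn2a* was called lower in the Wnt1Cre-mTmG tail pNSCs, at 29.4 ± 1.63 CPM against 94.6 ± 2.4 CPM in the brain NSCs (-1.69 ± 0.12, adjusted p = 7.343e-10, edgeR). *Cdkn2b* was called higher in Tail-pNSC (1.5 ± 0.17) and lower in the Sox2-GFP lung pNSCs (-1.05 ± 0.083), and neither gene was called in Lung-pNSC or in the DRG pNSCs (edgeR, both at an unadjusted p under 0.05 in each, 0 called by DESeq2). Among 5 mRNAs known to be bound by the IMP proteins, *H19* was higher in the Wnt1Cre-mTmG tail pNSCs (5.68 ± 0.18, 45.1 ± 0.29 against 0.892 ± 0.518 CPM) and lower in the Sox2-GFP lung pNSCs (-4.90 ± 0.33, 0.123 ± 0.0579 against 3.89 ± 0.404 CPM). The mean of 0.123 CPM lay under the floor of 3 counts in these libraries (0.1319 to 0.1426 CPM), so that the SE may understate the counting error. The Tail cells of the first experiment had 110504 counts of *H19*. *Igf2*, the growth factor after which the proteins are named, had 114 counts in the Wnt1Cre-mTmG tail pNSCs against 1 in the brain NSCs, a ratio of 59.4 (exact 95% interval 10.4 to 2365). These tail pNSCs also held more of the mesenchymal markers (416 to 427 against 33.3 to 34 CPM), and the part of such cells in *H19* and *Igf2* was not tested. None of the 5 was called in Lung-pNSC (edgeR, 2 at an unadjusted p under 0.05, 0 by DESeq2) or in the DRG pNSCs (edgeR, 3 at an unadjusted p under 0.05, 1 by DESeq2). *Cd44*, a cell surface receptor, was lower in both tail groups, with -1.31 ± 0.061 and -1.48 ± 0.062.

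Mature let-7 was not measured, since the RNA was selected for poly(A). Of 11 rows named for let-7 hairpins, 9 had no count and all rows together had 18. *Mir99ahg*, the host gene of a let-7c hairpin, had group means from 4.04 to 10.5 CPM and was called in 1 comparison only, the Sox2-GFP against the Wnt1Cre-mTmG brain NSCs (1.07 ± 0.16, adjusted p = 2.404e-07, edgeR).

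Over the 11 group means of log2(CPM + 1), the members resembled each other in part, which is given as a description since the groups share experiments. Pearson's r was 0.79 between *Igf2bp2* and *Igf2bp3*, 0.58 between *Hmga1* and *Igf2bp2* and -0.10 between *Hmga2* and *Igf2bp1*. The genes most like *Hmga2* in this measure were *Zrsr2* (0.96), *Smc6* (0.94) and *Csnk1g3* (0.92), where 99% of all genes were under 0.80. For *Hmga1* they were *Syt13*, *Sv2b* and *Ackr1* (0.94, 0.94 and 0.93, 99% of genes under 0.82), and for *Igf2bp1* they were *9530018H14Rik*, *Calml4* and *Otogl* (0.92, 0.91 and 0.91, under 0.71). *Map1b*, *4921524J17Rik* and *Wdr92* were most like *Igf2bp2* (0.90, 0.87 and 0.87, under 0.66), and *Arih2*, *Tfpt* and *Trmt1* most like *Igf2bp3* (0.90, 0.90 and 0.90, under 0.69).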

How the data were processed

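Poly(A)-selected RNA of 28 samples was sequenced as single-end reads. According to the labels and the study's methods, the authors aligned reads with HISAT2 to GRCm38 and counted them per gene with HTSeq, and the deposited table holds raw counts of 28244 genes, with no column left unused. The strand setting, counting mode and annotation release are not given in the sources used here. Reads that map to *Hmga1* and its copy *Hmga1b*, or to *Igf2bp3* and *Malsu1*, may therefore have been dropped or assigned to either row. Total counts ran from 9808246 to 22637031 per sample, and counting intervals and floors cover counting error only.

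Genes were filtered with filterByExpr (minimum count 10) and tested with edgeR's quasi-likelihood test (edgeR 4.0.16, R 4.3.3) after TMM scaling, with 1 fit for each experiment and 1 over all 28 samples for comparisons between brain NSC lines and for interactions. P-values were adjusted by Benjamini-Hochberg over all genes tested, and genes were called at an adjusted p below 0.05 where the change was also 1 log2 unit or more. The standard error is the log2 fold change divided by the root of the F statistic. It may understate the counting error where a group has few counts, as for *Igf2bp3* in Brain-NSC and the Wnt1Cre-mTmG brain NSCs. Groups with no count were given a floor of 3 counts per library. Groups with few counts were given a ratio with an exact 95% interval, and members at or under the floor on average were left out of counts of members called. On simulated counts with 200 genes changed 4-fold, all 200 were recovered in each of the 4 comparisons tested (16223, 14010, 15718 and 16193 genes), with 4, 0, 0 and 3 false calls.

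The text names the 7 members, the other genes of the let-7 axis with the 3 largest changes among those called in a comparison, those a result turns on, and the 3 genes most like each member over the group means. The members and lists were chosen with earlier results of these data known. Alternatives were DESeq2 (1.42.0), upper-quartile scaling, no filter, a mean count of at least 100, the replicate number as a block, 1 fit over all samples, leaving out each sample, and, chosen after seeing the data, the summed counts of *Hmga1* and *Hmga1b*. Figures were drawn with matplotlib 3.10.9. Sequences come from the RefSeq annotation of GRCm38.p6 and from GRCm38 with GENCODE M21.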

Additional observations from a re-analysis of the deposited data

Results flagged for a closer look

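The difference of pNSCs from brain NSCs had another size in the second experiment that measured the same organ for 3 members in the tail and 3 in the lung, by an interaction test over all 28 samples (edgeR, log2 scale). For the tail, the Wnt1Cre-mTmG value minus that of the first experiment was 1.81 for *Hmga2* (adjusted p = 4.333e-14), -1.16 for *Igf2bp2* (adjusted p = 8.17e-06) and 1.55 for *Igf2bp3* (adjusted p = 0.0008024, or 0.80 without Brain-NSC replicate 2), and all 3 were higher in the pNSCs of both experiments. For the lung, the Sox2-GFP value minus that of the first experiment was 1.91 for *Hmga2* (adjusted p = 3.136e-15), -5.51 for *Igf2bp2* (adjusted p = 1.811e-22) and -6.38 for *Igf2bp3* (adjusted p = 7.682e-23). In the lung the sign of each of *Igf2bp2* and *Igf2bp3* was opposite between the experiments, with every pNSC sample above every brain NSC sample in the first experiment and below in the Sox2-GFP line. The brain NSC lines themselves differed in these genes, and line, experiment and brain NSC control cannot be told apart. Nor can donor age, which is not given for the brain NSC lines. For the lung pNSCs the study's text gives adult lung for the first experiment and postnatal lung for the Sox2-GFP line.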

How the results depend on the processing

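Each count of members called, here over all members tested (5 in the main fits), stayed within 1.5 times its main value under the alternatives run. Of the 18 counts, 1 differed from the main value with DESeq2, which called 4 rather than 3 members in Lung-pNSC against Lung. Without the filter, which lets both *Lin28* genes be tested, 4 differed, with a mean count of at least 100 also 4, and with *Hmga1b* added 2. Some counts also changed when 1 sample was left out. Among single members, 80 of 81 results kept direction and side of the threshold with DESeq2, 81 of 81 with upper-quartile scaling, 74 of 76 with a mean count of at least 100, and 449 of 457 when 1 sample was left out. Signs turned for *Hmga1* with *Hmga1b* added (-0.26 in the Wnt1Cre-mTmG tail pNSCs against brain NSCs, -0.15 in the Sox2-GFP against the Wnt1Cre-mTmG brain NSCs), and for *Hmga1* in the Sox2-GFP lung pNSCs against Lung with the stricter filter (-0.064). They also turned when 1 sample was left out for *Igf2bp3* in Brain-NSC against the Wnt1Cre-mTmG brain NSCs (-0.43 to 0.80), *Hmga2* in the Sox2-GFP against those brain NSCs (-0.20 to 0.038) and the *Hmga1* tail interaction (-0.17 to 0.074). None of these was called, and the cause was not tested. The stricter filter cut the genes called in every comparison to between 0.49 and 0.64 times the main count, since fewer genes were tested (11037 to 12208), for instance from 1848 to 1107 in Tail-pNSC, 1476 to 842 in Lung-pNSC, 2630 to 1457 in the Wnt1Cre-mTmG tail pNSCs, 1377 to 679 in the DRG pNSCs and 2556 to 1487 in the Sox2-GFP lung pNSCs against their brain NSCs. With the replicate number as a block, 81 of 81 results and all 18 counts stayed as they were. Samples that share only a number did not deviate together (correlations from -0.0293 to 0.028), so that no pairing by number was seen. Where replicates differ by little more than counting error, a true pairing could also leave no correlation, so that pairing is not excluded. Groups of 2 samples and counts under the floor of 3 limit what can be said of *Lin28a*, *Lin28b* and, outside the tail pNSCs, Tail and Lung, of *Igf2bp1*.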

Other observations

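*Trim25*, which encodes a ubiquitin ligase that helps Lin28a act on the let-7 precursor, had no count in any of the 6 Brain-NSC, Tail-pNSC and Lung-pNSC samples, while Tail had 51.8 ± 1.2 CPM and Lung 153 ± 4.58 CPM (s.d., n = 2). Tail-pNSC was at least 318-fold lower than Tail and Lung-pNSC at least 991-fold lower than Lung. In the other experiments every group had counts, from 1.58 CPM on average in the Sox2-GFP lung pNSCs to 29.7 ± 2.09 CPM in the DRG NCSCs (s.d., n = 3), with 9 ± 0.686 CPM in the Wnt1Cre-mTmG brain NSCs. The absence in the 6 samples was thus shared by brain NSCs and pNSCs of 1 experiment.

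With *Hmga1* and *Hmga1b* summed, the Wnt1Cre-mTmG brain NSCs had 20.5 ± 0.735 CPM and the tail pNSCs 17.2 ± 0.519 CPM (s.d., n = 3), the reverse of the order of *Hmga1* alone.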
